A study of Aedes albopictus with 4 samples.

Results

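This report describes 2 neighbouring genes of the Asian tiger mosquito, Aedes albopictus, LOC109427398 and LOC115256642, which the deposited table names nose resistant to fluoxetine protein 6 and nose resistant to fluoxetine protein 6-like (NRF-6). They are 2 of the 24 genes with that product name among the 25320 genes of the table. All 24 were found by name, and the pair was then singled out because it had the largest increases of the family in the comparison of diquat with control. Their difference in that comparison is therefore given as a description, with no test, and the other 22 copies, taken by name whatever their values, are set beside it.

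RNA was sequenced from whole larvae in the fourth instar at 72 h. The diquat group had 2 libraries from larvae exposed to diquat, a bipyridyl herbicide that passes electrons to oxygen, at a sublethal 1/5 of the LC50 (the concentration lethal to the median larva), and the control group had 2 libraries from larvae with no treatment. The labels give no strain, sex, rearing batch or number of larvae per library, and the design text speaks of duplicates of 1 treated and 1 control sample. The p-values below thus measure the spread between these libraries, which may be technical. Every library came from whole animals, so fewer cells of a type and less RNA per cell cannot be told apart.

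NRF-6 is the founding member of a family of membrane proteins that cross the bilayer many times and carry an acyltransferase domain. The gene was found in the nematode Caenorhabditis elegans, where mutants do not show the nose muscle contraction caused by the antidepressant fluoxetine and where the protein acts in the intestine and hypodermis and in the passage of yolk to the embryo. A fly relative, drop-dead of Drosophila melanogaster, is needed for a normal peritrophic matrix, the chitin sheath of the midgut, and for adult survival. None of these roles was measured here, and the table gives a GO term to 0 of the 24 copies, against 901 genes in all.

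LOC109427398 had 1318 and 1299 normalized counts in the diquat libraries, against 50.2 and 29.2 in the control libraries. These values rested on 1438 and 1522 reads in the diquat libraries and on 42 and 28 reads in the control libraries. The groups lay far apart, with the lower diquat library above both controls by more than an order of magnitude, and the control libraries differed more from each other, in proportion, than the diquat libraries did. LOC109427398 averaged 1308 ± 13.2 normalized counts with diquat and 39.7 ± 14.9 in controls (SD, n = 2 each), a ratio of 32.9 and a log2 fold change of 5.06 on log2(value + 1).

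LOC115256642 had 966 and 1026 normalized counts in the diquat libraries, from 1054 and 1202 reads, against 45.5 and 43.8 in the control libraries, from 38 and 42 reads. Again the groups did not overlap, and here both control libraries were close to each other. Its group averages were 995.8 ± 42.5 normalized counts with diquat and 44.6 ± 1.15 in controls (SD, n = 2 each), a ratio of 22.3 and a log2 fold change of 4.45. Among 17992 tested genes LOC109427398 ranked 1 and LOC115256642 ranked 5 by log2 fold change. The copy with the next largest log2 fold change, LOC109427395, stood at 0.95, so that a wide gap separated the pair from the rest of the family.

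**Figure D1:**
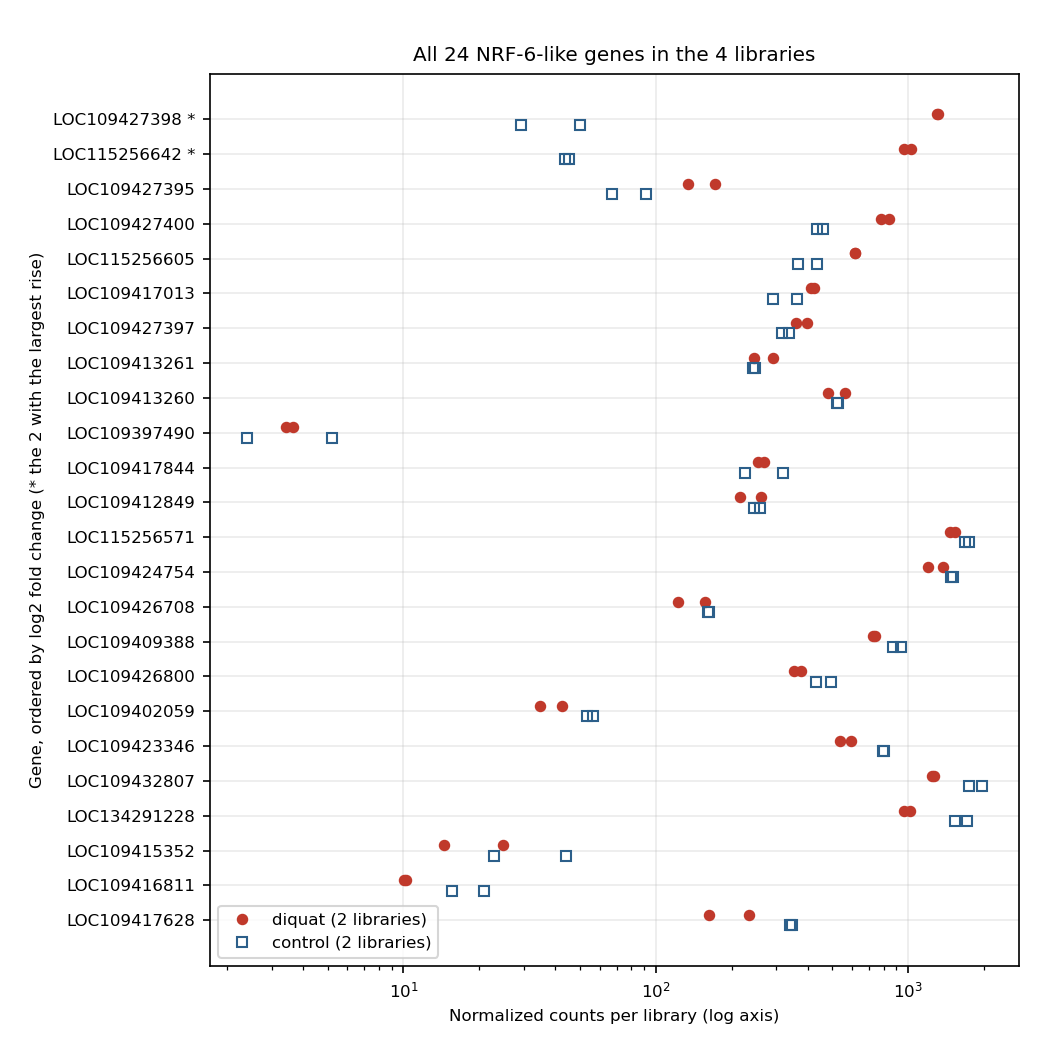
Normalized counts (log axis) of all 24 NRF-6-like genes, 1 row per gene ordered by log2 fold change, with filled circles for the 2 diquat libraries and open squares for the 2 control libraries. The 2 genes marked with an asterisk stand between 966 and 1318 with diquat and between 29.2 and 50.2 in controls, while in the other copies the groups lie close together or overlap.

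The pair made up a small part of the family's reads in controls and a larger one with diquat. Of all reads counted for the 24 copies, the 2 genes took 17.7% (95% exact binomial interval 17.1 to 18.4%) and 17.5% (16.9 to 18.1%) in the diquat libraries, against 0.764% (0.606 to 0.950%) and 0.592% (0.462 to 0.748%) in the control libraries. These intervals cover counting error only, and such shares depend on gene length as well as on transcript number. Since the pair was chosen for its rise, its larger share with diquat follows from that choice and is no test of it. The family's summed level was 12890 and 13268 normalized counts in the diquat libraries, against 12522 and 12331 in the control libraries. Without the pair, the 22 other copies summed to 10607 and 10943 with diquat and to 12426 and 12258 in controls, so the sum of the rest was lower in both diquat libraries while that of the whole family was higher.

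The other copies, which were not chosen by their values, went both ways. One of them, LOC109397490, had 4 and 4 reads in the diquat libraries and 2 and 5 reads in the controls and fell below the minimum mean of 10 normalized counts. Of the 21 tested, 4 rose and 8 fell in limma (Benjamini-Hochberg adjusted p under 0.05 over all genes), and 9 did not pass. The count of rises was 2 without diquat replicate 1. Across all 17992 tested genes 26.7% rose and 22% fell, 48.8% in all, so that a call in a single copy is common in this comparison. The 21 copies had a median log2 fold change of -0.21, against 0.00 over all tested genes, and ranged from -0.81 to 0.95. Both diquat libraries lay above both controls in 5 of the 21 copies and below them in 11, against 37.4% and 35.5% of all tested genes.

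**Figure D2:**
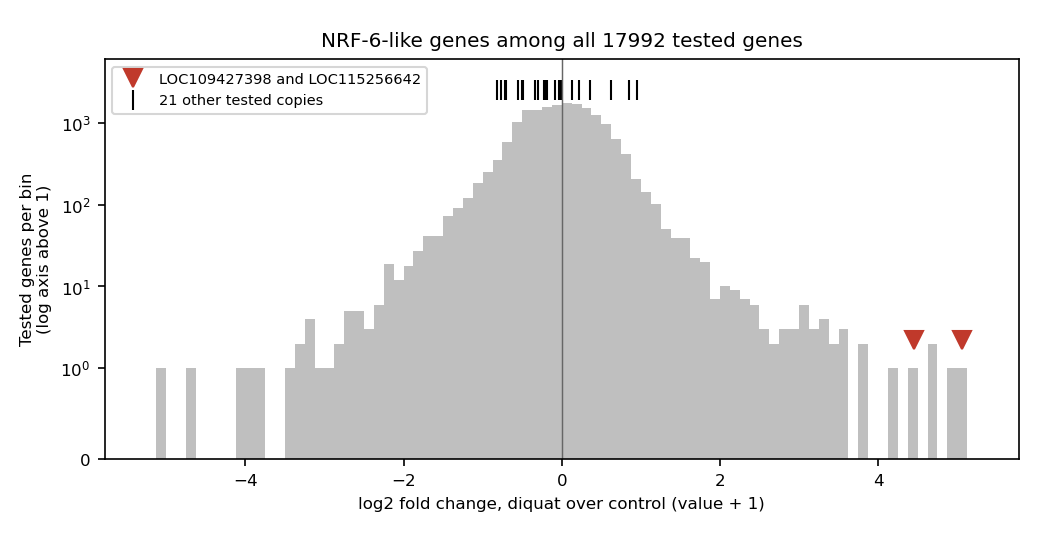
Log2 fold changes of diquat over control for all tested genes (grey, number of genes per bin on an axis that is logarithmic above 1). Red triangles mark the pair at 5.06 and 4.45, and black ticks mark the 21 other tested copies, which lie between -0.81 and 0.95 in the body of the distribution.

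Among the copies that rose, LOC109427400 had 779.8 and 839.8 normalized counts in the diquat libraries, against 461.7 and 437.2 in the control libraries. LOC109427400 is the nearest gene on one side of LOC109427398 in the AalbF5 assembly, and its log2 fold change was 0.85 ± 0.09 (SE; limma adjusted p = 9.12e-09). LOC115256605, another copy in the same stretch, had 613.9 and 615.4 with diquat and 367.2 and 436.1 in controls. The diquat libraries were nearly equal and above both controls, with a log2 fold change of 0.62 ± 0.10 (SE; limma adjusted p = 1.31e-05). LOC109427395 had 171.3 and 134.9 with diquat and 67.0 and 91.8 in controls. Its groups did not overlap, and the log2 fold change was 0.95 ± 0.22 (SE; limma adjusted p = 0.000784), a call that was lost without diquat replicate 1 (log2 fold change 0.77, limma adjusted p = 0.0552). The smallest of the 4 rises was that of LOC109417013, with a log2 fold change of 0.36 and a limma adjusted p of 0.0142 (DESeq2 adjusted p = 0.0739). It lost its call when any of 3 libraries was left out, with limma adjusted p-values of 0.115 without diquat replicate 1, 0.0824 without diquat replicate 2 and 0.202 without control replicate 1.

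The copies that fell did so by less than 2-fold. LOC109417628 had 162.2 and 234.7 normalized counts in the diquat libraries, against 348.1 and 339.1 in the control libraries, a log2 fold change of -0.81 ± 0.15 (SE; limma adjusted p = 7.23e-05). In the AalbF5 annotation that copy lies inside another gene, and its diquat libraries were further apart than its controls. LOC134291228 had 961 and 1016 with diquat and 1707 and 1531 in controls, a log2 fold change of -0.71 ± 0.07 (SE; limma adjusted p = 1.00e-09). LOC109432807 had 1244 and 1268 with diquat and 1960 and 1749 in controls, and its log2 fold change was -0.56 ± 0.06 (SE; limma adjusted p = 1.75e-08). In both, the diquat libraries lay close together and below both controls. A noncoding gene inside LOC134291228 had 34.2% of that copy's mean with diquat and 31.0% in controls, and another overlaps LOC109432807 in part.

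LOC109423346 had 595.6 and 538.5 with diquat and 801.4 and 798.2 in controls, with a log2 fold change of -0.50 ± 0.08 (SE; limma adjusted p = 2.10e-05). The other 4 falls were between -0.34 and -0.19 on the log2 scale, in LOC109426800, LOC109409388, LOC109424754 and LOC115256571. Of these, LOC109426800 lost its call without diquat replicate 1 (limma adjusted p = 0.106) and without control replicate 2 (0.130), LOC109424754 without diquat replicate 1 (0.254), and LOC115256571 without diquat replicate 2 (0.0867). LOC109409388 kept its call with any 1 library left out. LOC115256571 and LOC109424754 each hold an uncharacterized gene, LOC115256573 and LOC109424775, with log2 fold changes of 0.42 and 0.43, opposite in sign to the copy around it. LOC115256573 had 56.6% of the mean of LOC115256571 with diquat and 37.1% in controls. LOC109424775 had 62.5% of the mean of LOC109424754 with diquat and 40.0% in controls. Whether reads of these inner genes are also in the values of the copies was not tested. If all of them are, both copies fell by more, without those reads, than the values given here. LOC115256571 itself lies inside LOC109417220, named NADPH--cytochrome P450 reductase, which averaged 18908 normalized counts with diquat and 13532 in controls, a log2 fold change of 0.48. With a constant variance prior in place of the mean trend, LOC109427395, LOC109417013, LOC109417628, LOC109426800, LOC109424754 and LOC115256571 were not called, with limma adjusted p-values from 0.0578 to 0.176, while LOC109416811 gained a call.

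The 9 tested copies without a call included LOC109427397, the nearest gene on the far side of LOC115256642, at 360.1 and 398.6 normalized counts with diquat and 336.1 and 317.2 in controls. Both diquat libraries lay above both controls, with a log2 fold change of 0.21 ± 0.12 (SE; limma adjusted p = 0.133). LOC109416811, with 11 and 12 reads with diquat and 13 and 20 in controls, and LOC109415352, with 27 and 17 reads with diquat and 37 and 22 in controls, had log2 fold changes of -0.77 and -0.72 on few reads (limma adjusted p = 0.252 and 0.189). Their side of the threshold changed with the setting, since LOC109416811 was called lower with a constant variance prior (limma adjusted p = 0.0476) and LOC109415352 without control replicate 2 (log2 fold change -1.18, limma adjusted p = 0.0438). LOC109402059, LOC109426708, LOC109412849, LOC109417844, LOC109413260 and LOC109413261 had log2 fold changes from -0.49 to 0.13.

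The pair shares a position that the choice by name and value did not use. In the AalbF5 annotation, which was used only for the order of genes because no source names the authors' build, LOC109427398 and LOC115256642 are adjacent to each other. Together with LOC109427400 on one side and LOC109427397 and LOC115256605 on the other, they are 5 copies that lie inside the span of LOC109410169, a gene named metabotropic glutamate receptor 1. An O-acyltransferase like protein-like gene, LOC115253467, of a name that belongs to the same wider acyltransferase group, overlaps LOC109427397 in part. The 3 copies of the cluster other than the pair had log2 fold changes of 0.85, 0.62 and 0.21, with 2 higher and 0 lower by the limma call. The 18 tested copies elsewhere had a median of -0.26, with 2 higher and 8 lower. LOC109427395, among the higher ones at 0.95, comes just before LOC109410169 in gene order, so the split depends on the annotated edge of that gene. Of all tested genes 26.7% were higher and 22% lower. That split by position was made after the values were seen and is a description.

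The other genes of the stretch went both ways. Of 20 genes inside LOC109410169, 15 were not copies of the family and 9 of these were tested, of which 2 rose, 1 fell and 6 did not pass, with log2 fold changes from -0.61 to 0.58. Set beside the 26.7% of all tested genes that rose and the 22% that fell, counts this small show nothing particular to the stretch. LOC115253467, between 2 of the copies, had 1449 and 1449 normalized counts with diquat and 1548 and 1483 in controls, a log2 fold change of -0.06 (limma adjusted p = 0.379).

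**Figure D3:**
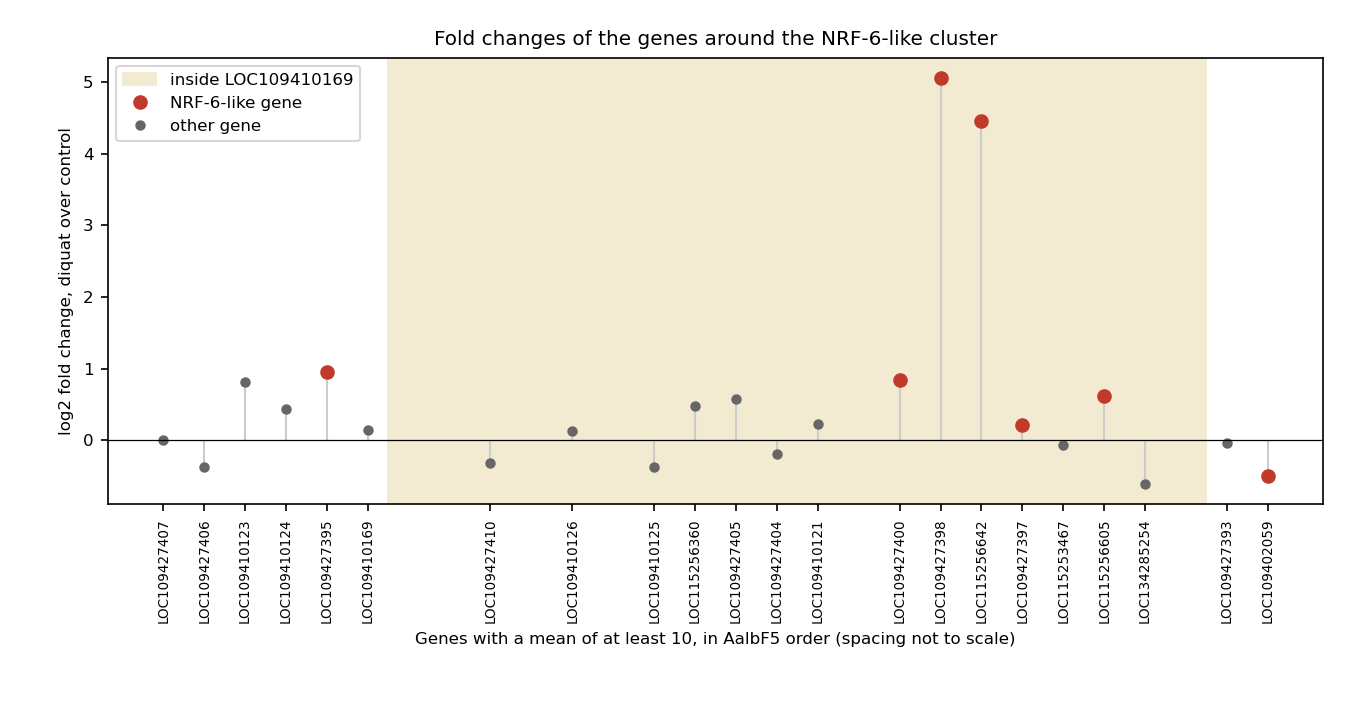
Log2 fold changes of diquat over control for the genes around the pair that averaged 10 normalized counts or more, in AalbF5 gene order with equal spacing. Red points are NRF-6-like genes, grey points are other genes, and shading marks genes inside LOC109410169. LOC109427398 and LOC115256642 stand at 5.06 and 4.45, and every other gene shown lies between -0.61 and 0.95.

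Some genes of this stretch occur more than once under the same name, which was noticed after the values were seen. A run of uncharacterized protein CG5902, tyrosine aminotransferase, tRNA methyltransferase 10 homolog A and an assembly factor 6 homolog of complex I comes before LOC109427395, and genes of the same names follow in the same order before LOC109427400. The tyrosine aminotransferase genes, named for the enzyme that starts tyrosine breakdown, fell by 0.37 (LOC109427406, limma adjusted p = 9.72e-09) and 0.38 (LOC109410125, limma adjusted p = 5.41e-08) on the log2 scale. The tRNA methyltransferase genes rose by 0.81 (LOC109410123, limma adjusted p = 0.000934) and 0.58 (LOC109427405, limma adjusted p = 0.000317). The assembly factor genes had opposite signs without a call, at 0.44 (LOC109410124, limma adjusted p = 0.304) and -0.19 (LOC109427404, 0.689), and the CG5902 genes stood at 0.00 (LOC109427407, 0.992) and 0.13 (LOC109410126, 0.506). The sources used here do not say how reads of near-identical copies were divided, so values of single copies, the NRF-6-like genes included, are uncertain to that extent.

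Reads of the pair may also be counted for the outer gene. Over the whole table, 1763 nested gene pairs had an inner gene averaging at least 100 normalized counts. In 1763 of them no library gave the inner gene more than its outer gene, as counting over whole gene bodies would. LOC109410169 itself had 12677 and 12652 normalized counts with diquat and 11643 and 11363 in controls, a log2 fold change of 0.14 ± 0.02 (SE; limma adjusted p = 2.36e-05, and 0.137 with a constant variance prior). The 5 nested copies summed to 31.8% and 33.0% of the outer gene's value with diquat, against 10.8% and 11.1% in controls. The outer gene was higher by 1162 normalized counts with diquat, less than the 2220 by which the sum of the pair was higher. If every read of the nested copies is also in the outer value, the remainder of LOC109410169 was 8640 and 8473 normalized counts with diquat and 10382 and 10100 in controls, lower in both diquat libraries. Under the same condition that remainder would still hold reads of the other genes inside the span, which were not subtracted. Among them LOC109410125 averaged 2777 normalized counts with diquat and 3611 in controls. Going the other way, LOC109410121 averaged 935 with diquat and 799 in controls. The condition was not tested, and the direction of the receptor gene's own transcript was not determined.

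**Figure D4:**
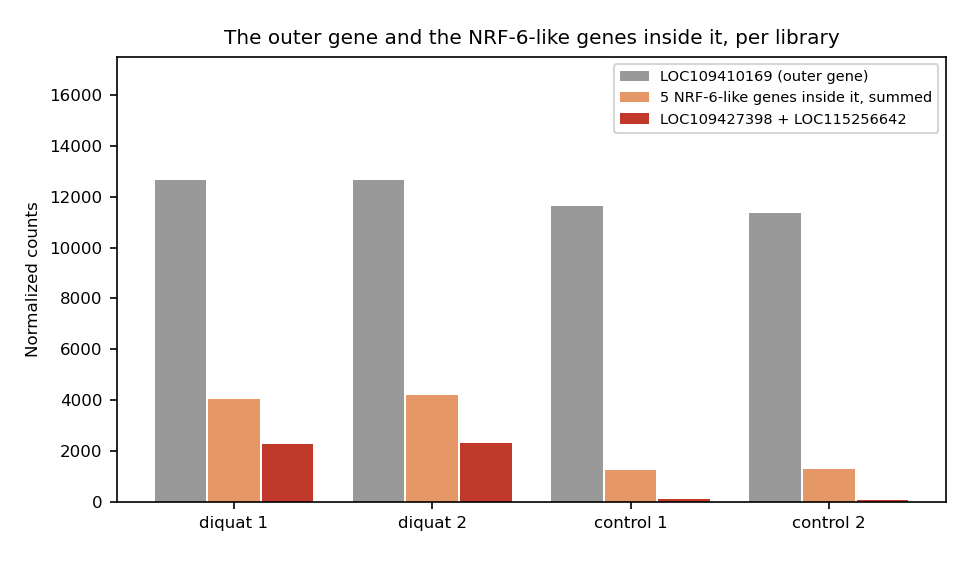
Normalized counts per library of LOC109410169 (grey), of the 5 NRF-6-like genes inside it summed (orange) and of LOC109427398 plus LOC115256642 (red), for diquat replicates 1 and 2 and control replicates 1 and 2. The pair's sum stands at 2283 and 2325 with diquat and at 95.7 and 73.0 in controls, while the outer gene stands at 12677 and 12652 with diquat and at 11643 and 11363 in controls.

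The genes whose pattern was most like the pair were sought by the distance between values of log2(value + 1), each centred on the gene's mean over the 4 libraries, among 14349 genes with a mean of at least 50 that were neither copies nor overlapping genes. The pair was at a distance of 0.79 from each other. Closest to LOC115256642 was a peritrophin-1 gene, LOC115257508, named for chitin-binding proteins of the peritrophic matrix, at a distance of 0.40. It had 1434 and 1366 normalized counts with diquat and 46.6 and 59.5 in controls. Closest to LOC109427398 was LOC109433130, a facilitated trehalose transporter Tret1, named for a carrier of the blood sugar of insects, at a distance of 0.84. LOC109433130 had 162.2 and 128.9 normalized counts with diquat and only 9.57 and 2.09 in controls, so its distance rests on low control values. LOC115257508 came next at 0.86.

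The nearest 5 of the pair had 4 genes in common, which were LOC115257508, a synaptic vesicle glycoprotein 2B-like gene (LOC109424813), serine protease persephone (LOC115256661), named for a protease that in flies acts upstream of the Toll receptor, and putative serine protease K12H4.7 (LOC115258728). The fifth place for LOC115256642 went to a second synaptic vesicle glycoprotein 2B-like gene, LOC109414631, at 438.0 and 450.6 normalized counts with diquat and 35.9 and 51.1 in controls. With 4 libraries in 2 groups, this likeness is mainly that of a similar difference between the groups and says nothing of shared control.

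**Figure D5:**
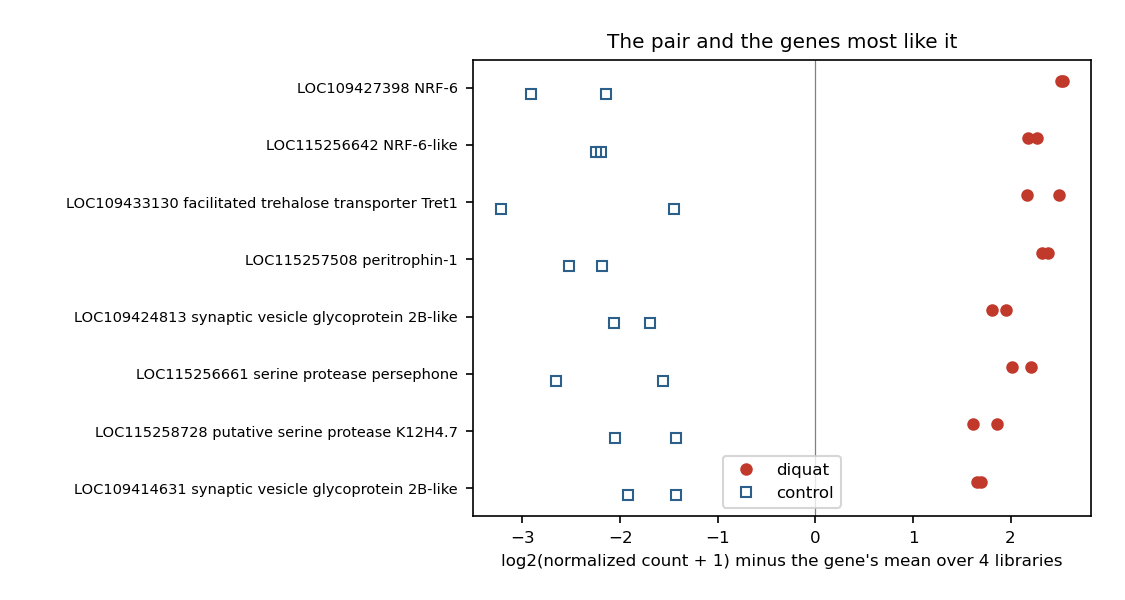
Values of log2(normalized count + 1) minus each gene's mean over the 4 libraries, for the pair (top) and the 6 genes most like either of the 2, with filled circles for diquat libraries and open squares for control libraries. In all 8 genes the diquat libraries lie right of 0 and the control libraries left of it, and the gap is widest in LOC109427398.

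Lists of related genes were taken by product name, with earlier results of these data known. Other acyltransferases, enzymes that pass fatty acyl groups to lipids, proteins or small molecules, had 29 genes, of which 28 were tested, 7 rose and 3 fell (median log2 fold change 0.06). Lysophospholipid acyltransferase 5 (LOC109425913), which remodels membrane phospholipids, had 2041 and 2107 normalized counts with diquat and 1430 and 1393 in controls (log2 fold change 0.55, limma adjusted p = 2.22e-09). Lysophospholipid acyltransferase 6 (LOC109419687) rose by 0.19 (limma adjusted p = 6.09e-06, and 0.0882 with a constant variance prior). Sequence likeness of these genes to the NRF-6-like genes was not computed. The list also held 6 genes named O-acyltransferase like protein. One of them rose, LOC109417578 by 0.52 (limma adjusted p = 6.34e-07), and 1 fell, LOC109422966, by 0.54 (limma adjusted p = 0.000209). The share of acyltransferases that rose, 7 of 28 (25%), was near the 26.7% of all tested genes. The share that fell, 3 of 28 (10.7%), was below the 22% of all tested genes. With a constant variance prior 3 rose and 1 fell.

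Genes of the peritrophic matrix and chitin enzymes, the context of the fly relative, had 40 members with 35 tested, of which 17 rose (48.6%, against 26.7% of all tested genes) and 7 fell (20%, against 22%), with a median log2 fold change of 0.20. Besides the peritrophin-1 gene already described, probable chitinase 10 (LOC109420107) had 6748 and 6772 normalized counts with diquat and 4055 and 3971 in controls, a log2 fold change of 0.75 (limma adjusted p = 2.03e-16). A second peritrophin-1 gene, LOC115269993, fell by 0.68 (limma adjusted p = 1.95e-16), so that genes of this name went both ways. Peritrophin genes are also among the midgut markers, of which 31 of 77 tested genes were higher and 18 lower. The part of a difference across midgut genes in this list was not tested.

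Lipid and yolk carriage, the context of the worm gene, had 31 genes with 29 tested, of which 15 rose (51.7%, against 26.7% of all tested genes) and 3 fell (10.3%, against 22%), with a median log2 fold change of 0.24. An NPC intracellular cholesterol transporter 2 homolog (LOC115257481), a sterol-binding protein, had 85013 and 83418 normalized counts with diquat and 33974 and 33855 in controls, a log2 fold change of 1.31 (limma adjusted p = 1.40e-29). Apolipophorins (LOC109399794), the lipid carriers of the blood, rose by 0.40 (limma adjusted p = 4.00e-22), and a further NPC2-like gene, LOC109406196, fell by 0.51 (limma adjusted p = 4.90e-19).

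Serotonin genes were included only because fluoxetine, the drug in the family's name, acts on serotonin uptake. A link between them and the NRF-6-like genes was not tested. The list had 14 members with 13 tested, of which 7 fell (53.8%, against 22% of all tested genes) and 0 rose in limma. The median log2 fold change was -0.35. Markers of the nervous system moved the same way, with 6 of 7 tested genes lower, and their part in the serotonin list was not tested. At an unadjusted p under 0.05 the counts were also 7 and 0, edgeR and DESeq2 each gave 7 and 0, and without control replicate 1 limma gave 7 and 1. A 5-hydroxytryptamine receptor-like gene, LOC115257016, had 1890 and 1806 normalized counts with diquat and 2640 and 2846 in controls (log2 fold change -0.57, limma adjusted p = 3.97e-10). The further receptors, LOC115267983 and LOC109622842, fell by 0.49 (limma adjusted p = 3.02e-09) and 0.40 (limma adjusted p = 1.33e-08).

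Libraries held 45243090 and 48383964 counted reads in the diquat group and 34502559 and 39242657 in the control group, with reads for 22372 to 22669 genes. Markers of the organs of a whole larva were all present: reads were found for 8 of 8 hexamerin genes (fat body), 104 of 109 trypsin and peritrophin genes (midgut), 20 of 20 muscle genes, 8 of 8 synaptic genes, 35 of 35 larval cuticle genes and 21 of 21 V-type proton ATPase genes. Their sums differed between the groups. Midgut markers summed to between 338527 and 342352 normalized counts with diquat, against 389120 to 393753 in controls, with 31 of 77 tested genes higher and 18 lower (26.7% and 22% of all tested genes). Larval cuticle genes summed to between 41599 and 42183 with diquat, against 78106 to 78553 in controls, with 23 of 31 tested genes lower and 1 higher. V-type proton ATPase genes summed to between 247109 and 247481, against 194080 to 194397, with 19 of 21 higher. Hexamerins summed to between 814297 and 816239 with diquat, against 977581 to 981784, with 1 of 8 higher and 4 lower. Muscle genes summed to between 595654 and 597669, against 449248 to 451356, with 7 of 18 higher and 6 lower, and synaptic genes to between 7751 and 7853, against 8497 to 9023, with 6 of 7 lower. The part of these differences in the values of the pair was not tested.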

How the data were processed

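Gene expression was measured by RNA sequencing of 4 libraries from whole larvae. Per the submitters' processing notes, STAR 2.7.10a, fastp 0.12.4, bcl2fastq and DRAGEN were used, without a stated role. The sources used here do not name the genome build, annotation, read counter or strand setting. The authors deposited normalized counts per gene, a signal that, per the file headers, has 1 column per library. Dividing each library by its smallest nonzero value gave whole reads for 100% of values (relative tolerance 1e-06). A median-ratio factor computed on the deposited values was the same in all 4 libraries.

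All 25320 gene identifiers were found in the RefSeq table of AalbF5, used only for gene order and overlap. The members and lists were chosen with earlier results of these data known. Genes named were all 24 copies of the family, genes overlapping or next to the pair, the 5 genes most like each of the pair and in each list the 3 most significant members averaging 50 or more. Genes of repeated names near the pair, genes overlapping other copies, LOC115253467 and LOC109422966 were named after their values were seen.

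Diquat was compared with control by limma 3.58.1 in R 4.3.3 (mean trend, two-sided) on log2(value + 1), which understates changes of low genes, for 17992 genes with a mean of at least 10. P-values were Benjamini-Hochberg adjusted at 0.05. SDs and SEs rest on 2 libraries per group, and limma draws each variance toward a trend over all genes. On the recovered reads edgeR 4.0.16 (quasi-likelihood) called 8829 genes and DESeq2 1.42.0 called 7223, against 8772 in limma. Alternatives were other pseudocounts, filters, scalings, a block for the replicate number, a constant prior on the variance and the removal of each library. On simulated counts for this comparison (17981 genes), limma found 47 of the 50 genes with a 4-fold change, 36 of the 50 at 2-fold, 29 of the 50 at 1.5-fold and 20 of the 48 at 1.25-fold, with 3 false calls. Python 3.11.15 with pandas 2.3.3, scipy 1.17.1 and matplotlib 3.10.9 made the tables and figures.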

Additional observations from a re-analysis of the deposited data

How the results depend on the processing

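The pair was chosen for its rise, so its sign is no sign of stability, and changes of the filter on low values, of the variance prior or of the block leave its fold changes as they are. LOC109427398 stood at a log2 fold change of 4.68 to 5.44 and LOC115256642 at 4.41 to 4.49 with 1 library left out, and a pseudocount of 5 gave 4.33 for LOC115256642. Of the other copies, 4 rose and 8 fell in limma and in edgeR, and 3 rose and 8 fell in DESeq2. With a constant variance prior 2 rose and 5 fell, since 2 rises and 4 falls lost their call and LOC109416811 gained one as a fall. Leaving out 1 library gave 2 to 4 rising and 6 to 8 falling copies, with the lowest count of rises without diquat replicate 1, and LOC109415352 was called lower without control replicate 2. Signs changed in 4 copies without a call when 1 library was left out, where LOC109413261 ranged from -0.00039 to 0.25, LOC109413260 from -0.12 to 0.094, LOC109417844 from -0.29 to 0.21 and LOC109412849 from -0.22 to 0.047. LOC109410169 lost its call with a constant variance prior (limma adjusted p = 0.137). For the lists, that prior gave 3 rising and 1 falling acyltransferases and 4 falling peritrophic matrix genes. Leaving out 1 library gave 2 to 5 falling acyltransferases, the highest count without control replicate 2, and 0 to 1 rising serotonin genes, the 1 without control replicate 1. The causes were not tested.

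Samples of the same replicate number did not deviate together across genes (correlation -0.014 over 14370 genes). This correlation cannot show a pairing that touched few genes or differed in sign between the groups, and the labels name none. With the replicate number as a block, 4935 genes rose and 4121 fell, against 4809 and 3963 without it, and no call among the tested copies changed. In the control libraries 28 to 42 reads per gene limit the precision of the pair's ratios.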
